A study of Mus musculus with 2 samples.

Results

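Among single cells sorted from engrafted mouse tumors, 187 of 11456 carried the authors' class label Stromal together with a copy number group, CNV2 or CNV3, that otherwise belonged mostly to the tumor class. They were chosen by those 2 deposited labels alone and made up 187 of the 301 Stromal cells. The remaining Stromal cells were in group CNV1. The tumors had grown in wild-type (WT) mice or in mice whose heat shock factor 1 (HSF1) carries alanine in place of serine at positions 303 and 307 (S303/7A), and each genotype gave 1 library. The series' text speaks of 4 mice pooled, so single animals cannot be separated within a library. The sources used here do not give the age, the tumor line, any treatment or whether the engrafted cells carried the mutation. Live leukocytes (CD45-positive) and other cells (CD45-negative) were sorted apart and recombined at 5 to 1 before droplet libraries of RNA 3′ ends were made. With 1 library per genotype no test was possible, every interval below is a 95% exact interval for counting error only, and no value has a replicate check.

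Stromal cells of a tumor are the fibroblasts, pericytes and vessel cells of the host, and they are usually told from tumor cells by lineage markers and by a normal set of chromosomes. Copy number groups in single-cell data are commonly read from runs of neighbouring genes that are high or low together. Malat1 and Neat1 are long noncoding RNAs that stay in the nucleus, whereas messenger RNAs of ribosomal proteins and of metabolism are mostly in the cytoplasm. HSF1 is the transcription factor that turns on chaperone genes under protein stress, and serines 303 and 307 are known as sites whose phosphorylation restrains it.

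The WT library held 6654 cells and the S303/7A library 4802. Each UMI (unique molecular identifier) stands for 1 RNA molecule caught. The 187 cells held 801482 UMIs in WT and 781532 in S303/7A. The libraries shared 48 cell barcodes, and none of them belonged to these cells. The authors' classes, clusters and copy number groups describe the same cells whose genes are compared here, so differences between them are descriptions.

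WT contributed 109 of the cells, 67 in CNV2 and 42 in CNV3, and S303/7A contributed 78, 62 in CNV2 and 16 in CNV3. All 187 lay in 1 deposited cluster, C15. Among Stromal cells they held 66.9% (59.1 to 74.0) in the WT library and 56.5% (47.8 to 64.9) in the other, and these intervals overlap. Of Stromal and tumor cells together they were 4.37% (3.60 to 5.25) of 2495 in WT and 7.27% (5.79 to 8.99) of 1073 in S303/7A. Their CNV3 share was 38.5% (29.4 to 48.3) for WT and 20.5% (12.2 to 31.2) for S303/7A. In the tumor clusters the CNV3 share of CNV2 and CNV3 cells was larger: 50.5% and 43.1% in C01, 88.5% and 81.0% in C04, 91.4% and 94.9% in C08, and 91.1% and 90.2% in C14, WT first. In the immune classes CNV2 and CNV3 together made up 1.97% and 1.07% of cells.

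Markers of host fibroblasts, pericytes and vessels did not exceed the range of the tumor clusters in these cells. Pdpn, a membrane glycoprotein of fibroblasts and lymphatic vessels that many tumors also make, was at 0.876 CP10K (UMIs per 10000, averaged over cells) in WT and 0.689 in S303/7A. The tumor clusters spanned 0.338 to 1.00 and 0.336 to 1.15, so Pdpn lay inside the tumor range in both libraries. Igfbp3, a secreted binder of insulin-like growth factors, was at 0.344 CP10K (WT) and 1.15 (S303/7A), again inside the tumor ranges of 0.260 to 2.33 and 0.428 to 2.28. It was found in 15 cells of each library, and 1 cell gave 41.7% of its S303/7A UMIs. The CNV1 Stromal cells had more Igfbp3, at 1.64 and 5.86.

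Summed over the fibroblast marker list, which holds collagens and surface proteins of fibroblasts, the level was 11.1 CP10K in WT and 3.52 in S303/7A, below the tumor clusters at 12.4 to 47.0. CNV1 Stromal cells were at 15.7 and 7.77, so in S303/7A they too lay under every tumor cluster. Pericyte and smooth muscle markers summed to 0.702 and 0.517, also below the tumor clusters at 0.785 to 1.98, and CNV1 Stromal cells were inside that range at 1.09 and 1.26. Over the 5 fibroblast markers tested, the median log2 ratio of the CNV2 and CNV3 cells to the CNV1 Stromal cells was -0.23, beside -0.26 for all genes, so these markers did not set the cells apart from the other Stromal cells. Endothelial markers summed to 0.753 and 0.230 against 6.06 and 8.20 in CNV1 Stromal cells, and Pecam1, Emcn, Vwf, Tie1 and Cldn5 had no UMI in either library. Of epithelial markers, keratins Krt8 and Krt18 had no UMI, while CNV1 Stromal cells held 27 and 47 UMIs of Krt8 and 44 and 51 of Krt18. Against a floor of 3 UMIs over a library's cells of this kind, Krt18 was at least 30.2-fold lower in WT and at least 36.3-fold lower in S303/7A. Endothelial and epithelial markers were thus far lower in the CNV2 and CNV3 cells than in the CNV1 Stromal cells. The endothelial sum rested on 37 UMIs of 5 genes in WT, inside the tumor range of 0.518 to 1.19 CP10K, and on 21 UMIs of 4 genes in S303/7A, under that range. None of these 4 lists was higher in the 187 cells than in every tumor cluster. The adipocyte list, of which Fabp4 and Lpl were in the table, was higher in both libraries, at 0.194 and 0.0579 CP10K against 0.00672 to 0.0308, from 18 and 5 UMIs. Since no list of fibroblast, pericyte, vessel or epithelial markers stood above the tumor clusters, the cells are called by their copy number groups below.

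Immune RNA was present at a low level. Macrophage markers summed to 5.86 CP10K in WT and 5.73 in S303/7A, against 1.51 to 5.49 in the tumor clusters and 14.3 and 10.3 in CNV1 Stromal cells. Pan-leukocyte markers summed to 1.54 and 1.45, against 0.413 to 1.07 in the tumor clusters. T and NK cell markers were at 0.247 and 0.245. These are means, and single cells were far above the median. Over 8 immune marker genes the median cell had 0.961 CP10K in WT and 1.84 in S303/7A, and the highest cells had 52.3 and 242. The medians of the tumor clusters were higher, at 1.11 to 1.32 and 2.42 to 2.68. But the median cell held 1 UMI of these genes in each library, against 2 to 10 in the deeper tumor clusters. At so few UMIs a median depends on depth, so the medians do not show less immune RNA in the typical cell. Whether free RNA or attached cells gave these UMIs was not tested.

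**Figure D1:**
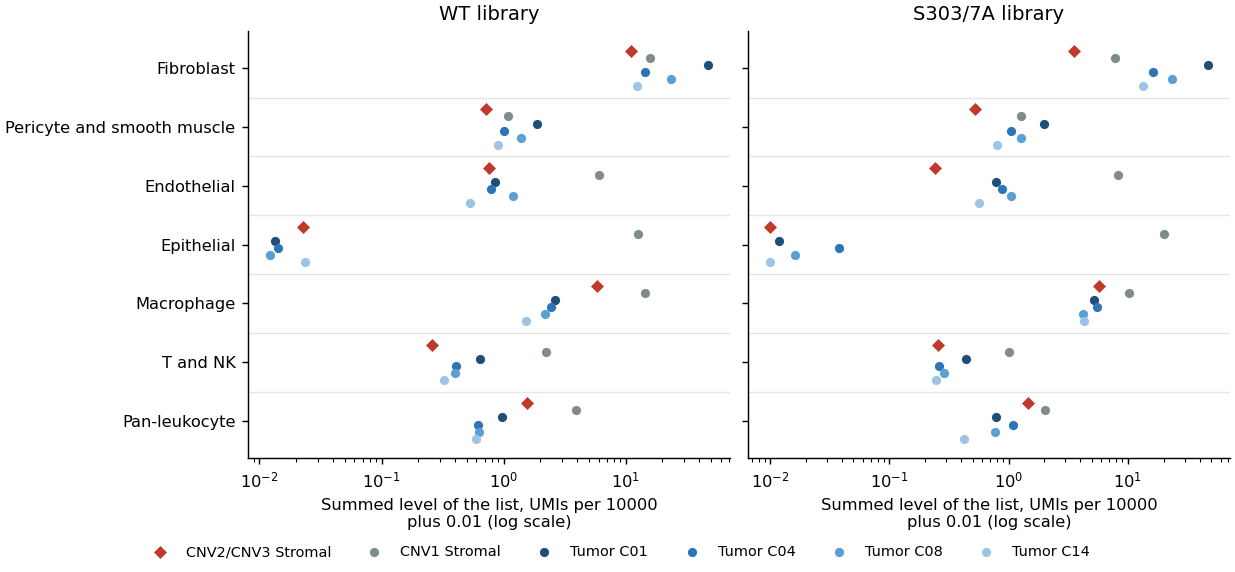
Summed CP10K (log axis) of each marker list in the CNV2 and CNV3 Stromal cells, the other Stromal cells and the 4 tumor clusters, with 1 point per set and library. Endothelial and epithelial markers stand high in the other Stromal cells (6.06 to 20.1) and low in the CNV2 and CNV3 cells (at most 0.753), whose fibroblast level of 3.52 to 11.1 lies under that of the tumor clusters. The epithelial levels of the other Stromal cells, 12.7 and 20.1, came from 73 of 388750 UMIs in WT and 103 of 365773 in S303/7A. Shallow cells therefore weigh on these 2 means.

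Y-linked genes were low in these cells. Eif2s3y, which encodes a translation initiation factor subunit on the Y chromosome, was at 0.491 CP10K (WT) and 0.521 (S303/7A) in the immune classes, which are host cells. The tumor class had 0.00791 and 0.00704. The CNV2 and CNV3 Stromal cells held 1 UMI of it in WT and 2 in S303/7A, where the immune rate would give 38.0 and 35.6. Relative to the immune classes the ratio of UMIs was 0.0263 (0.000666 to 0.147) for WT and 0.0562 (0.00680 to 0.203) for S303/7A. Relative to the tumor class it was 1.77 (0.0438 to 10.4) and 3.70 (0.418 to 15.3), intervals that include 1. CNV1 Stromal cells were at 0.0513 and 0.0760 CP10K, from 3 and 9 UMIs, and the ratio to them was 0.162 (0.00308 to 2.01) in WT, which also includes 1, and 0.104 (0.0109 to 0.502) in S303/7A. In WT the counts therefore do not separate the cells from either the tumor class or the CNV1 Stromal cells. Ddx3y, a Y-linked RNA helicase that the tumor class did express, gave 18 and 10 UMIs, a ratio to the tumor class of 0.439 (0.260 to 0.695) and 0.229 (0.110 to 0.422). So of these 2 Y-linked genes, 1 was near 0 as in the tumor class and the other was lower than in it.

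The chromosome pattern was mixed. For each of 20 chromosomes the median log2 ratio of its genes was taken over CNV1 Stromal cells and centred on the median of all genes used. The CNV2 and CNV3 cells lay on the same side in both libraries for 11 chromosomes, and all 4 tumor clusters lay on that side too for 4 of them. For the rest of the 11 the tumor clusters did not all share a side with each other. On chromosomes 3 and 7 all 4 clusters lay below 0 in both libraries. There the CNV2 and CNV3 cells lay on both sides, at 0.03 and -0.05 and at -0.12 and 0.01, WT first. On chromosome 6 the centred median was -0.19 in WT and -0.16 in S303/7A, and the clusters spanned -0.23 to -0.07. On chromosome 9 it was 0.15 and 0.20 against 0.04 to 0.13, on chromosome 10 it was 0.09 and 0.15 against 0.01 to 0.24, and on chromosome 19 it was 0.23 and 0.15 against 0.01 to 0.40. On X it was 0.08 and 0.54, with C14 on the other side. On chromosome 5 the cells lay below 0 in both libraries, at -0.03 and -0.05, where C01, C04 and C08 lay above it in both (0.01 to 0.08). How often sets that share a reference fall on 1 side without any copy number change was not measured. Both sides of this comparison share the CNV1 Stromal reference, and the deposited groups may rest on the same expression, so the likeness is not independent support for the labels.

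The cells were shallow and poor in genes. Their median was 6472 UMIs in WT and 9102.5 in S303/7A, from a lowest of 716 and 687 to a highest of 27752 and 31755. The tumor clusters had medians of 17991 and 22114 in C01, 35113.5 and 41351 in C04, 26113 and 30299 in C08, and 33231 and 32884 in C14, and CNV1 Stromal cells had 3260.5 and 2788. The CNV2 and CNV3 cells thus lay between the other Stromal cells and the tumor clusters in depth. They had a median of 1366 and 1453.5 genes per cell, where the tumor clusters had 3843 to 5536. Thinned to 1000 UMIs per cell, a step that 2 cells of WT and 3 of S303/7A were too shallow for, they kept 491 and 431 genes, against 498 to 564 in the tumor clusters and 544 and 522 in CNV1 Stromal cells. A smaller number of genes at equal depth means that UMIs were concentrated on fewer genes. Genes for ribosomal proteins took a median of 38.3% and 41.6% of UMIs, above the tumor clusters at 30.2% to 37.9% and CNV1 Stromal cells at 29.7% and 31.1%.

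Malat1, chosen for its values, varied widely among these cells. Its median was 3.83 CP10K in WT and 0.409 in S303/7A, where the medians of the tumor clusters were 59.5 to 210. No Malat1 UMI was found in 23 of 109 WT cells (21.1%, 13.9 to 30.0) and in 37 of 78 S303/7A cells (47.4%, 36.0 to 59.1). In the tumor clusters at most 0.752% of cells lacked it, and among CNV1 Stromal cells 0 of 54 in WT, which allows a share of up to 6.6%, and 15 of 60 in S303/7A. The mean was 85.4 CP10K in WT and 14.5 in S303/7A, from 3195 and 592 UMIs, and 1 cell gave 36.1% of the S303/7A UMIs. Cells at 10 CP10K or more averaged 175 (WT) and 136 (S303/7A) and the rest 1.01 and 0.626. In WT the levels were graded: of the 53 cells at or above 10 CP10K, 14 were at 10.6 to 32.7, under the lowest first quartile of a tumor cluster (38.9 in C04).

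The line at 10 CP10K was drawn after the values had been seen, so the distance between the means on either side of it is built in. In WT the nearest cells were at 6.20 below it and 10.6 above it, and in S303/7A at 4.28 and 14.7. Between 5 and 20 CP10K there were 6 WT cells and 1 S303/7A cell. Below the line were 56 of 109 WT cells (51.4%, 41.6 to 61.1) and 70 of 78 S303/7A cells (89.7%, 80.8 to 95.5), so the share was larger in S303/7A and the intervals do not overlap. Below it were also 20.4% (WT) and 31.7% (S303/7A) of CNV1 Stromal cells, 0% to 3.01% of tumor clusters, and 1.30% and 1.26% of the immune classes. The clusters at 0% were C08 in WT and C14 in both libraries, where up to 0.937%, 1.53% and 2.68% are allowed.

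**Figure D2:**
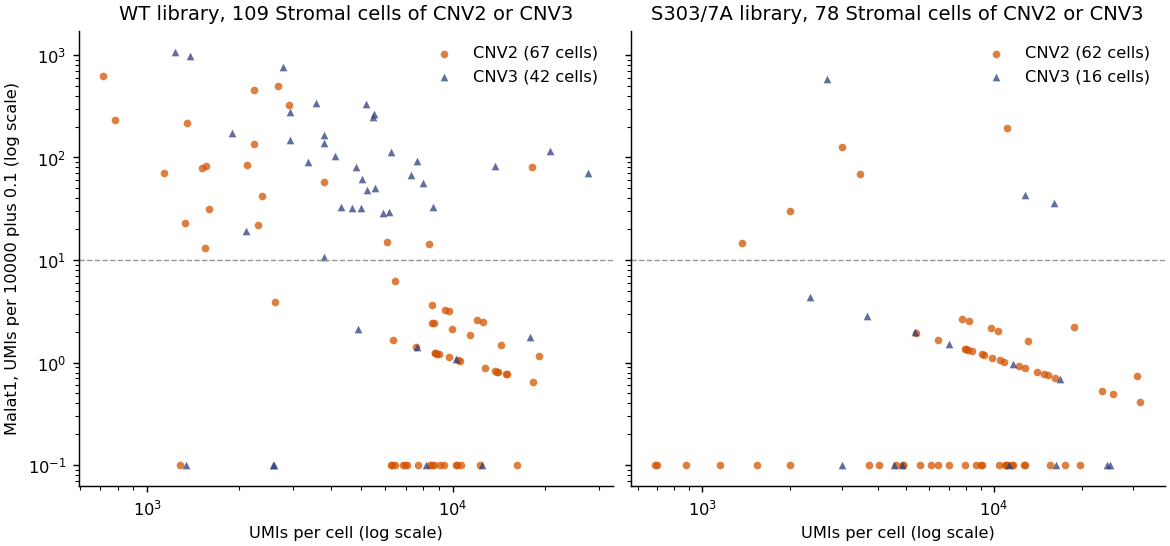
Malat1 level (CP10K, log axis) against total UMIs (log axis) of each CNV2 or CNV3 Stromal cell, WT and S303/7A in separate panels, with the line at 10 CP10K. In WT 56 of 109 cells lie below the line and in S303/7A 70 of 78, and the low cells reach high depth.

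**Figure D3:**
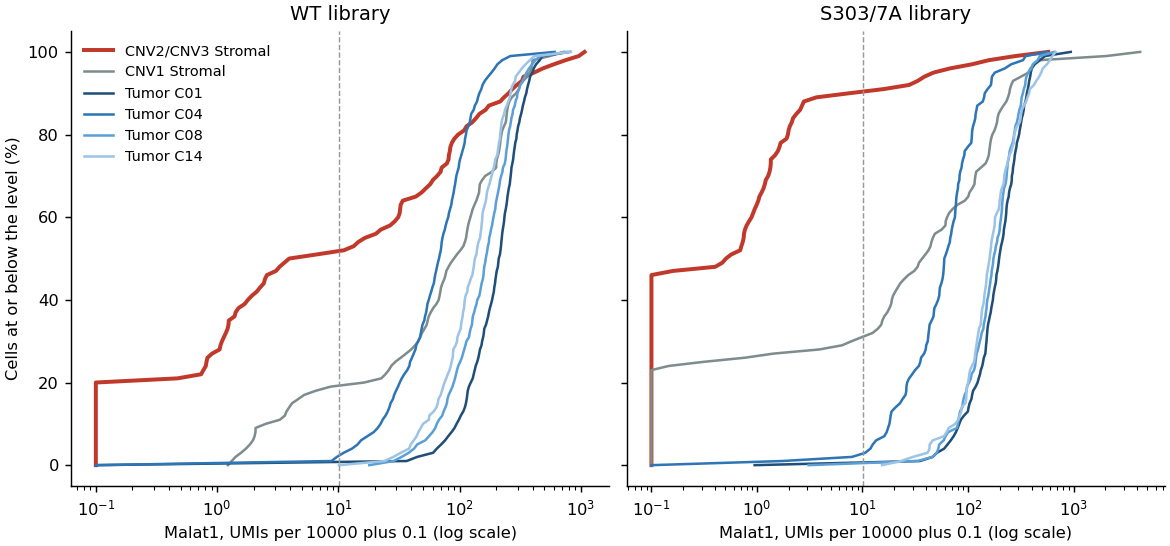
Cumulative percent of cells by Malat1 level (CP10K, log axis) in the CNV2 and CNV3 Stromal cells, other Stromal cells and tumor clusters of each library. At 10 CP10K the CNV2 and CNV3 cells have reached 51.4% in WT and 89.7% in S303/7A, while no tumor cluster is above 3.01%.

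The cells of low Malat1 were not the shallow ones. The WT cells below the line had a median of 9053.5 UMIs and the 53 above it 3778, and in S303/7A the medians were 9193 and 3234 with only 8 cells above the line. With the WT cells in 3 groups by depth, the median Malat1 level was 85.1 CP10K in the shallowest, 4.85 in the middle and 1.00 in the deepest group. The S303/7A cells showed no such order, with medians of 0, 1.05 and 0.510. At 1000 UMIs the low cells had 402 genes in WT and 429 in S303/7A, and the other cells 545 and 534.5. Ribosomal protein genes took 44.3% and 42.3% of UMIs in low cells and 32.3% and 31.4% in the others. The WT cells above the line therefore had the gene number and ribosomal share of tumor cells at a lower depth, and those below it did not.

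The 2 kinds of cell fell unevenly over the copy number groups. Below 10 CP10K were 70.1% (WT) and 91.9% (S303/7A) of CNV2 cells, and 21.4% and 81.3% of CNV3 cells. A mitochondrial share under 0.5% of UMIs was found in 11 of 109 WT cells (10.1%, 5.15 to 17.3) and 15 of 78 S303/7A cells (19.2%, 11.2 to 29.7), against at most 1.5% of any tumor cluster. Of these cells 7 in WT and all 15 in S303/7A also had low Malat1. Whether these droplets held a nucleus was not tested.

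Against the tumor clusters, few genes were higher in the CNV2 and CNV3 Stromal cells and many were lower. A gene was counted when its log2 ratio of mean CP10K, with 0.1 added to each level, was past 1 against each of the 4 clusters in both libraries, which makes 8 pairs. Of 7963 genes tested 2 were at least 2-fold higher (0.0251%) and 97 at least 2-fold lower (1.22%). The median ratio over all genes was -0.43, and 406 genes were above and 3424 below 0 in all 8 pairs. With each pair centred on its own median, so that a ratio is relative to the typical gene, 13 genes were 2-fold higher and 7 lower. Thinning to 1000 UMIs left 910 genes found often enough, with a median log2 ratio of 0.13 and 61.1% above 0. Unthinned, the same genes had a median of 0.13 with 59.6% above 0, so these commonly found genes were not lower as a whole. The named genes below are those most extreme in their weakest pair.

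The 2 higher genes were Rps26 and Tyrobp. Rps26, a protein of the small ribosomal subunit, was at 29.2 CP10K (WT) and 43.1 (S303/7A), against 12.2 to 15.8 in the tumor clusters, a log2 ratio of 1.11 to 1.64. It falls outside the naming rule and has near-identical pseudogene copies, so its count is uncertain. Tyrobp, an adaptor of receptors on myeloid and NK cells, was at 1.07 and 1.48 against 0.326 to 0.608, a log2 ratio of 1.04 to 1.67. It was found in 20 and 26 cells, and 1 cell gave 54.3% of its S303/7A UMIs. Among the cells with low Malat1 the smallest of its 8 log2 ratios was -0.92. Laptm5 and Fcer1g, also leukocyte genes, were just behind it with smallest log2 ratios of 0.71 and 0.63. The macrophage marker sums given above were also higher than in every tumor cluster as means over cells. The median cell had fewer immune marker UMIs per 10000 than in any cluster of its library, but held only 1 such UMI, at a lower depth.

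Several other named genes lay above every tumor cluster in both libraries. Actb, cytoplasmic actin, was at 68.4 CP10K (WT) and 55.1 (S303/7A), and the tumor clusters reached 32.8 and 33.7 at most. Cyb5r3, a cytochrome b5 reductase, was at 5.65 and 7.39 against 1.89 to 3.45, from 429 and 519 UMIs. Timp1, a secreted inhibitor of matrix proteases, was at 4.92 and 4.67 against 1.67 to 3.02. These 3 were above every tumor cluster in both libraries without reaching 2-fold in each pair. Nefl, a neurofilament subunit, was at 0.965 and 0.643 against 0.0161 to 0.501, found in 30 and 24 cells. Hmgn5, a nucleosome-binding protein, was at 0.644 and 0.620 against 0.102 to 0.326. Cct8 (a subunit of the actin and tubulin chaperonin), Psma6 (a proteasome subunit), Usmg5 (a subunit of ATP synthase) and the septin Sept10 had smallest log2 ratios of 0.65, 0.64, 0.63 and 0.73. Lgals1, a galactose-binding lectin that is abundant in mesenchymal cells, was at 136 and 165 against 53.2 to 117, and S100a6, a calcium-binding protein, at 85.0 and 122 against 38.4 to 91.5.

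Among the genes named as lowest were subunits of a transcription factor. Jund, a subunit of the AP-1 transcription factor, was at 1.73 CP10K (WT) and 0.903 (S303/7A), against 3.89 to 9.76 in the tumor clusters, and the log2 ratios ran from -3.05 to -1.33. Jun, its relative, was at 2.34 and 0.648 against 4.09 to 9.73. Eps8, which links growth factor signals to actin, was at 0.213 and 0.0797 against 0.707 to 1.06. Bmpr1a, a receptor of bone morphogenetic proteins, was at 0.0485 and 0.0131 against 0.339 to 0.518, from 5 and 2 UMIs. Rab24, a small GTPase, was at 0.200 and 0.133 against 0.732 to 1.05. Aak1, a kinase of clathrin adaptors, had no UMI in either library and was at least 3.79-fold lower than every tumor cluster. Ccnt1 (cyclin T1 of the transcription elongation kinase), Ints6 (a subunit of the Integrator complex), Fbxo11 (a ubiquitin ligase subunit), Mysm1 (a histone deubiquitinase), Kif1b (a motor protein), Abhd17b (a depalmitoylase) and Amn1 held at most 11 UMIs in a library, and their log2 ratios were between -2.37 and -1.32.

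By gene list, immediate early genes, the AP-1 and EGR factors that cells switch on within minutes of a stimulus, stood low. Of 16 tested 10 were below all tumor clusters in both libraries, beside 43% of all genes tested, and 2 of them were so by 2-fold, with a median log2 ratio of -1.32. The 2 were Jun and Jund, and Junb was at 0.842 and 0.753 CP10K against 1.46 to 4.10. Of 12 collagens 4 were below in all pairs, a smaller share than the 43% of all genes, although their median was -1.32. Of 12 genes of the TGF-beta system, which drives matrix production, 7 were below, with a median of -0.87, and matrix glycoproteins had a median of -1.17 over 8 genes. Fn1, fibronectin, was at 8.89 and 2.83 CP10K against 10.1 to 35.5. These medians stand beside the -0.43 of all genes.

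Some lists had medians above that of all genes. Of 26 cytosolic ribosomal proteins tested, 9 were above all tumor clusters, beside 5.1% of all genes, and none below, with a median of 0.22. Of 16 actin and adhesion genes 4 were above and 3 below in all pairs, with a median of 0.12. Of 20 genes of the heat shock response 2 were above and 6 below in all pairs, with a median of 0.14. Among those below were Bag3, a co-chaperone of HSP70, at 0.115 and 0.0419 CP10K against 0.270 to 0.534, the J-domain chaperones Dnajb1 and Dnajb4, the co-chaperone Chordc1 and Hsf1 itself. The 2 above were Hsp90aa1 and Hspd1. Hsp90aa1, the inducible HSP90 chaperone, was at 5.19 and 6.33 CP10K against 1.63 to 4.98, and Hspd1, the mitochondrial chaperonin, at 3.02 and 3.57 against 1.01 to 2.81. Proliferation genes had a median of 1.65 with pair medians from -0.92 to 2.01, since the tumor clusters themselves differ. Mki67, a marker of cycling cells, was at 0.370 and 0.276 CP10K, inside the cluster range of 0.0113 to 0.714. Genes that mark the tumor class had a median of 0.04 over 14 genes, with 4 above and none below in all pairs, so these genes lay near the tumor level.

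Most of the lower calls came with the cells of low Malat1. With the 126 cells below 10 CP10K alone, 1000 of 7971 genes were at least 2-fold lower than every tumor cluster (12.5%) and 5 at least 2-fold higher (0.0627%), and the pair medians were -0.79 to -0.54. With the 53 WT cells above the line, the pair medians were -0.11 to 0.00, and 4.97% to 9.52% of genes were 2-fold lower in a pair, where it was 28.7% to 37.7% with the WT cells below the line. Among the low cells Malat1 itself defined the split. Ogt, a glycosyltransferase of nuclear and cytoplasmic proteins, was at 0.108 CP10K (WT) and 0 (S303/7A) against 1.23 to 2.90. Son and Rbm39, both splicing proteins, were at 0.0667 and 0.111, and at 0.334 and 0.587, against 1.17 to 1.94 and 4.07 to 5.29. Higher in the low cells were Atp5b, the beta subunit of ATP synthase, at 10.4 and 10.0 against 3.22 to 4.94, S100a11 at 17.7 and 21.6 against 3.90 to 10.8, and Ppia, cyclophilin A, at 58.8 and 59.7 against 18.1 to 33.1. These genes were named for their extremes after the split.

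The difference from the tumor clusters followed transcript length. With the tested genes in 5 equal groups by their longest annotated transcript, the median log2 ratio was -0.17 for the shortest group (median 1347 bases), then -0.31, -0.41, -0.50, and -0.65 for the longest (median 6939 bases). The share of genes above 0 was 39.6% in the shortest and 6.33% in the longest group. In the cells with low Malat1 the medians ran from -0.27 to -1.06. Among genes at 1 CP10K or more they were 0.21 in the shortest and -0.64 in the longest group of all the CNV2 and CNV3 cells, and 0.27 and -1.08 in those with low Malat1. The groups were formed after the named genes had been seen, and expression level and protein class differ between them.

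**Figure D4:**
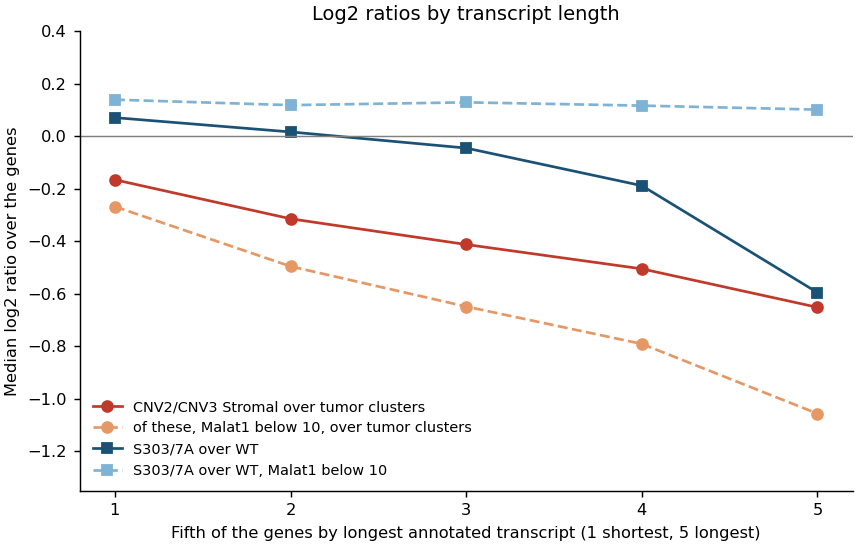
Median log2 ratio of genes in 5 equal groups by transcript length (shortest to longest) for the CNV2 and CNV3 Stromal cells over the tumor clusters and for S303/7A over WT, with all cells and with cells of Malat1 below 10 CP10K. The lines over the tumor clusters descend from -0.17 to -0.65 and from -0.27 to -1.06, and the S303/7A over WT line descends from 0.07 to -0.60 with all cells and is level (0.10 to 0.14) within the cells of low Malat1.

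Against the CNV1 Stromal cells of the same library, epithelial and vessel genes were the lowest. Of 4526 genes 22 were at least 2-fold higher in both libraries (0.486%) and 336 at least 2-fold lower (7.42%), with a median of -0.26, and after centring on the median 84 and 150. Clu, a secreted chaperone, was at 0.0965 CP10K (WT) and 0.0260 (S303/7A) against 19.5 and 31.9. Igfbp7, a secreted protein of vessels, was at 0.0981 and 0.0427 against 12.1 and 13.2. Wfdc2, a secreted protease inhibitor of epithelia, had no UMI against 14 and 34, so it was at least 9.62-fold lower in WT and at least 24.2-fold lower in S303/7A. Col4a2, a basement membrane collagen, and Ctla2a, a cysteine protease inhibitor, were also among the 8 lowest, with at most 3 UMIs each in a library. The 8 highest were low genes apart from Psat1 and Ccng1. Psat1, an enzyme of serine synthesis, was at 1.64 and 1.54 CP10K against 0.483 and 0.535, and Ccng1, a p53 target, at 1.76 and 1.37 against 0.716 and 0.410. Nefm, the medium neurofilament subunit, was at 0.342 and 0.510 against 0.0924 and 0.150, and Zrsr2, Ints8, Myl6b, Ska1 and Borcs7 were at 0.182 to 0.675.

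Of all genes tested 44.7% were below the CNV1 cells in both libraries and 19% above. By list, 9 of 12 collagens were below, 6 of them by 2-fold. Below in both libraries were also 12 of 15 genes of MHC class I presentation, 2 by 2-fold, and 9 of 10 immediate early genes, 4 by 2-fold. All 26 ribosomal protein genes were above, with a median of 0.29. Col4a1 was at 0.0415 and 0 CP10K against 1.66 and 3.09, and H2-K1, a class I heavy chain, at 3.29 and 2.73 against 8.76 and 5.17. Immune marker sums were lower than in the CNV1 cells, as given above, and their part in the MHC values was not tested.

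Between genotypes, collagen, immediate early and interferon-response genes were at lower levels in the S303/7A cells than in the WT cells, and so was Malat1. Of 4452 genes 87 were at least 2-fold higher in S303/7A (1.95%) and 527 at least 2-fold lower (11.8%), with a median of -0.10. After centring on the median the counts were 121 and 425, and over the CNV2 cells alone 186 and 247. Hsf1 was at 0.0794 CP10K (WT) and 0.109 (S303/7A) from 5 and 6 UMIs, too few to set a direction, and a point mutation would not show in these counts. All of these values stand beside the unequal Malat1 shares of 51.4% and 89.7%, so the value within the cells of low Malat1 is given for each list and for many of the genes named below. Of all genes tested 57.1% were lower in S303/7A and 42.9% higher, and within low Malat1 39.4% were lower and 60.6% higher, which is the background for the counts that follow.

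All 10 tested collagens were lower in S303/7A, 8 of them by 2-fold, with a median log2 ratio of -1.46. Col1a2, a chain of type I collagen, was at 3.93 CP10K (WT) and 1.08 (S303/7A), a ratio of UMIs of 0.431 (0.336 to 0.548). Within the cells of low Malat1 (56 WT and 70 S303/7A) it was at 1.30 and 0.776, a ratio of 0.875 (0.635 to 1.21), an interval that includes 1. Over the list 8 of 9 collagens were then lower, 2 by 2-fold, with a median of -0.67. Col6a3, a type VI chain, went from 2.62 and 0.557 with a ratio of 0.393 (0.286 to 0.534) to a ratio of 0.642 (0.439 to 0.937). Fn1 had a ratio of 0.382 (0.322 to 0.451) over all cells and 0.749 (0.6 to 0.935) within low Malat1, and Sparc, a collagen-binding glycoprotein, 0.672 (0.594 to 0.759) and 0.730 (0.636 to 0.838). Collagen and fibronectin ratios thus lay nearer to 1 within the low cells, and that of Sparc differed little.

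Interferon-response genes were lower for 17 of 20 tested, 9 by 2-fold, with a median of -0.91, and within low Malat1 for 10 of 14, 4 by 2-fold, with a median of -0.48. Isg15, a ubiquitin-like protein induced by interferon, was at 2.89 CP10K (WT) and 0.924 (S303/7A), a ratio of 0.365 (0.257 to 0.510), and 0.608 (0.396 to 0.929) within low Malat1. Ifit1, an antiviral RNA-binding protein, was at 1.03 and 0.0706 from 49 and 4 UMIs, and B2m, the light chain of class I molecules, at 35.1 and 26.6, a ratio of 0.766 (0.725 to 0.809) and 0.737 (0.694 to 0.783). Of these 3 genes, Isg15 and B2m kept an interval under 1 within the low cells, and Ifit1 did not, at 0.276 (0.0471 to 1.15).

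Immediate early genes were lower in all 11 tested, 7 by 2-fold, with a median of -1.07. Within low Malat1 4 of 7 were lower with a median of -0.24, under the 0.12 of all genes there, and none was past 2-fold in either direction. Jun was at 2.34 and 0.648 CP10K, a ratio of 0.222 (0.136 to 0.347), and 0.689 (0.318 to 1.49) within low Malat1. The TGF-beta system was lower in 8 of 8 with a median of -0.44, and within low Malat1 2 of 6 were lower with a median of 0.16, near the 0.12 of all genes there.

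Heat shock genes, which HSF1 drives, were higher in 11 and lower in 6 of 17, with a median of 0.12, none past 2-fold. Within low Malat1 the count was 11 and 5, a share near the 60.6% of all genes that were higher there, with a median of 0.20 beside 0.12. Hspa8, the constitutive HSP70, was at 15.9 CP10K (WT) and 18 (S303/7A), a ratio of UMIs of 1.01 (0.936 to 1.09), and 1.00 (0.917 to 1.09) within low Malat1. Hsp90aa1 had a ratio of 1.17 (1.03 to 1.34) over all cells and 0.932 (0.812 to 1.07) within low Malat1, and Hspe1, the partner of Hspd1, 1.20 (1.07 to 1.34) and 1.27 (1.12 to 1.45). The stress-inducible Hspa1a held 3 UMIs in WT and none in S303/7A, at or under the floor. Hspb6, a small heat shock protein that is not in the list counted above, was at 0.0329 and 0.293 CP10K from 5 and 14 UMIs. Its log2 ratio was 1.56, past 2-fold.

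The most extreme single genes were mostly rare. Ctsk, a collagen-degrading protease, had the highest log2 ratio, 2.5, but 1 cell gave 90.9% of its WT UMIs and another 93.4% of its S303/7A UMIs, and without both cells the log2 ratio was 0.78. Ndufa9, a subunit of respiratory complex I, was at 0.245 and 1.02 CP10K, a ratio of UMIs of 2.16 (1.36 to 3.48), and 1.62 (0.991 to 2.71) within low Malat1. Cdc20 and Kif20a, genes of mitosis, were at 0.253 and 1.02, and at 0.145 and 0.640, from 23 and 38 and from 9 and 24 UMIs. For each gene the highest S303/7A cell was at 28.6 CP10K, which weighs heavily on a mean over 78 cells. Within low Malat1 the ratios of UMIs of Cdc20 and Kif20a were 1.4 (0.793 to 2.53) and 2.94 (1.17 to 8.80). Eipr1, Gskip, Utp18, Efcab14, Mrpl16, Psmd5 and Gstm2 rested on 1 to 24 UMIs a library. Their highest S303/7A cells were at 11.4 to 28.6 CP10K, so single cells weigh on these means too. Psmd5, a proteasome assembly factor, had a log2 ratio of 1.55 that was 0.41 without the highest cell of each library.

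Top2a, the topoisomerase of dividing cells, had the lowest ratio, at 1.14 CP10K (WT) and 0.0291 (S303/7A) from 45 and 3 UMIs, a ratio of 0.0684 (0.0136 to 0.213). Within low Malat1 the ratio was 0.210 (0.0213 to 1.10), an interval that includes 1. Cdc20 and Kif20a stood on the other side from Top2a in these means, but with thinned cells their log2 ratios were -0.053 and -0.30. Of 15 proliferation genes 7 were higher and 8 lower, and within low Malat1 11 and 5 of 16. Ccl2, a monocyte chemokine, was at 2.45 and 0.171 with 88.5% of its WT UMIs in 1 cell, and its log2 ratio was -3.23 with and -1.45 without the highest cell of each library, and -1.79 within low Malat1. Nav1, a microtubule regulator, and Bdnf, a neurotrophin, had no UMI in S303/7A against 22 and 37 in WT, at least 7.15-fold and 12-fold lower. Nrp2 (a semaphorin receptor), Ogt, Nr2f2 (a nuclear receptor), Arglu1 (a splicing protein), Hist1h2ap (a histone H2A) and Sema4b (a semaphorin) had log2 ratios of -2.52 to -2.34, and among the cells of low Malat1 that of Hist1h2ap was 0.33.

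A few other genes were higher in S303/7A, S100a4 and Spp1 on many UMIs and Igfbp3 on few. S100a4, a calcium-binding protein of migrating cells, was at 14.3 CP10K (WT) and 23.8 (S303/7A), a ratio of 1.68 (1.55 to 1.82), and 1.67 (1.53 to 1.83) within low Malat1. Igfbp3 had a ratio of 2.98 (1.99 to 4.58), and 2.5 (1.62 to 3.95) within low Malat1. It rested on 33 UMIs in WT and 96 in S303/7A. The 1 cell named above gave 41.7% of the S303/7A UMIs, and the intervals cover counting error only. Spp1, osteopontin, was at 31.6 and 33.6, a ratio of 1.21 (1.14 to 1.28), and 1.65 (1.53 to 1.78) within low Malat1.

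Within the cells of low Malat1 the direction of the whole comparison turned. Of 4089 genes 229 were at least 2-fold higher in S303/7A (5.6%) and 84 at least 2-fold lower (2.05%), with a median of 0.12. Over cells of any Malat1 level, the median was also above 0 with detection in 20% of cells (0.02), with thinned cells (0.12) and over CNV2 cells alone (0.02). It was at or below 0 at the other settings. With all cells, unthinned, the same genes had medians of 0.02, 0.08 and -0.04, in that order. Genes 2-fold lower outnumbered those 2-fold higher at every setting but the cells of low Malat1. They were 161 against 36 with detection in 20% of cells, 89 against 82 with thinned cells and 247 against 186 over CNV2 cells. The turn in these counts was thus seen only within low Malat1. By length the S303/7A over WT medians over all cells ran from 0.07 in the shortest to -0.60 in the longest group, and within low Malat1 from 0.14 to 0.10. Of the 24 program lists with a gene tested within low Malat1, 16 had a median below 0 there. Among these were collagens, matrix glycoproteins (6 of 7 lower, median -0.63), interferon-response genes, chemokines and cytokines (4 of 7, -0.36), mitochondrially encoded genes (10 of 12, -0.23) and MHC class I presentation (8 of 12, -0.13). Ribosomal protein genes were higher in 15 of 26 over all cells and lower in 23 of 26 within low Malat1, with medians of 0.03 and -0.14. Hypoxia and glycolysis genes had a median of 0.06 over all cells and of -0.24 within low Malat1, with 13 of 15 lower. Genotype and the share of cells with low Malat1 cannot be told apart at the level of libraries, since each genotype is 1 library.

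**Figure D5:**
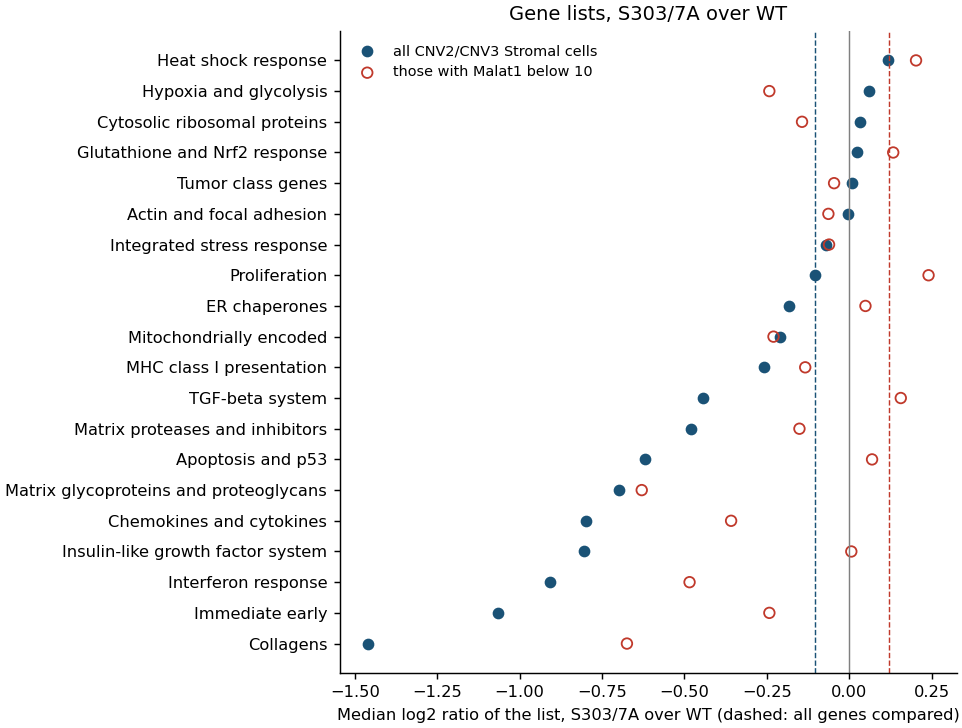
Median log2 ratio, S303/7A over WT, of each gene list over all CNV2 and CNV3 Stromal cells and within those of Malat1 below 10 CP10K, beside the medians of all genes tested (-0.10 and 0.12). Collagens move from -1.46 to -0.67, immediate early genes from -1.07 to -0.24 and interferon-response genes from -0.91 to -0.48, while heat shock genes are at 0.12 and 0.20.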

How the data were processed

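Per the submitters' processing notes, Cell Ranger and Seurat 3.0 with builds mm10 and GRCm38 were used. Filters on cells and the methods behind classes, clusters and copy number groups are not stated in the sources at hand. The authors deposited natural log values, ln(1 + UMIs scaled to 100000 per cell), with each cell's UMI and gene count and mitochondrial percent. The embedding scores deposited by the authors were not used. Undoing the log gave whole UMI counts for 99.9% of nonzero values (within 0.1 UMI). Levels are mean CP10K, with a pseudocount of 0.1, which understates differences of low genes, over genes found in at least 10% of cells of 1 set compared. UMI ratios have exact conditional intervals and shares exact binomial (Clopper-Pearson) intervals. Sets under 20 cells were not compared.

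Named genes are the 12 highest and 12 lowest against the tumor clusters and between genotypes and the 8 against other Stromal cells, without ribosomal, mitochondrial and model genes, plus list members. A few genes the rule names are not reported here. The members and the 15 marker and 26 program lists were chosen with earlier results of these data known. Doublets were scored with Scrublet in scanpy 1.11.5, whose caller marked 0.842% (WT) and 0.0833% (S303/7A). All cells were kept, and leaving out the expected 5.32% and 3.84% was an alternative. Transcript lengths came from GENCODE on GRCm38, and at least 99.2% of genes had one. The measures were tested on simulated counts, drawn for every cell from a shared profile apart from genes changed by set folds. That test does not cover the spread between real cells. Python 3.11.15, numpy 2.4.6, scipy 1.17.1, pandas 2.3.3 and matplotlib 3.10.9 were used.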

Additional observations from a re-analysis of the deposited data

How the results depend on the processing

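No paired analysis was possible because each genotype has 1 library. Pooled animals, 109 and 78 cells and 801482 and 781532 UMIs limit every value, and low genes cannot be ordered at this depth.

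Of 82 counts recomputed 30 stayed within 1.5 times and 52 moved. A count of like size can still hold other genes. Thinned cells gave 82 genes higher in S303/7A beside 87, and only 4 were shared. Of the 22 genes higher than other Stromal cells, 1 was shared with summed UMIs and 3 without the shallowest cells. Of the 97 lower than tumor, 4 were shared with thinned cells. Leaving out the highest Scrublet scores kept 77.2% to 100% of the genes of each count. With a pseudocount of 1 the counts against tumor clusters were 1 higher and 1 lower, against other Stromal cells 0 and 18, and between genotypes 1 and 11, and with 0.01 they were 720 lower than tumor, 60 and 533 against other Stromal cells, and 198 and 822 between genotypes. Summed UMIs gave 240 lower than tumor, 5 higher than other Stromal cells, and 19 and 307 between genotypes. Thinned cells gave 1 and 8 against tumor, 10 and 40 against other Stromal cells, and 89 lower in S303/7A. Without the shallowest cells they were 1 and 172 against tumor, 10 higher than other Stromal cells and 32 higher in S303/7A, and without the deepest cells 1 higher than tumor and 191 lower than other Stromal cells. CNV2 cells alone gave 4 and 517 against tumor, 574 lower than other Stromal cells, and 186 and 247 between genotypes. Detection in 20% gave 10 and 90 against other Stromal cells and 36 and 161 between genotypes, and no filter gave 612 lower than other Stromal cells, and 187 and 1080 between genotypes. Without cells of 2 or more immune UMIs they were 66 and 137 against other Stromal cells, and 227 higher in S303/7A. Chosen after seeing the data, leaving ribosomal and mitochondrial UMIs out gave 189 lower than tumor and 49 higher than other Stromal cells, centring gave 13 and 7 against tumor and 84 and 150 against other Stromal cells, and cells of low Malat1 gave 5 and 1000 against tumor, 844 lower than other Stromal cells, and 229 and 84 between genotypes. The share of members among Stromal cells in S303/7A was 73.3% without the shallowest cells, and among Stromal and tumor cells 13.5% and 47.1% without immune UMIs.

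Of 872 values of named genes 12 reversed: Zrsr2 (-0.12 with summed UMIs, -0.37 without the shallowest cells), Ska1 (-0.21) and Borcs7 (-0.73, thinned) against other Stromal cells, Psmd5 (-0.048, -0.021), Cdc20 (-0.053), Kif20a (-0.30) and Gstm2 (-0.95) between genotypes, Mysm1 (0.21, thinned) and Tyrobp (-0.92) against tumor clusters, and Hist1h2ap (0.33). The highest S303/7A cell was at 28.6 CP10K for each of Psmd5, Cdc20 and Kif20a and at 14.3 for Gstm2. Thinning to 1000 UMIs left out the 3 S303/7A cells below that depth. The cause of the reversals was not tested. All cells lay in C15, so the cluster that holds most of them gave the same values. CNV3 cells alone were too few in S303/7A, and too few tumor cells lacked immune UMIs.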

Other observations

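Within the WT cells, the 67 of CNV2 were set against the 42 of CNV3, a split made after values had been seen. Of 4976 genes 145 were at least 2-fold higher in CNV2 cells (2.91%) and 1370 at least 2-fold lower (27.5%), with a median log2 ratio of -0.45. Malat1 was below 10 CP10K in 70.1% of the CNV2 and 21.4% of the CNV3 cells. How far these unequal shares enter the ratios below was not tested. Igfbp3 was higher in CNV2 cells, with a log2 ratio of 1.93 and a ratio of UMIs of 7.80 (1.98 to 67.2). Crabp1, a carrier of retinoic acid, had a ratio of UMIs of 1.44 (1.31 to 1.59) and Rps26 of 2.18 (1.98 to 2.41). Jun was lower in CNV2 cells, with a ratio of 0.162 (0.101 to 0.252), as was Malat1, with 0.159 (0.146 to 0.172). The S303/7A library had 16 CNV3 cells, too few to compare.

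Of the other Y-linked genes, Uty and Kdm5d each gave 1 UMI in the WT cells and none in the S303/7A cells, where the tumor class's rate would give 3.92 and 5.56 UMIs in WT and 4.58 and 5.75 in S303/7A.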
